A study of Mus musculus with 12 samples.

Results

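The Ms4a family of myeloid genes was followed in 12 RNA-seq libraries of spinal cord white matter, through the 8 rows of the deposited count table whose Ensembl genes are Ms4a4a, Ms4a4b, Ms4a4c, Ms4a6b, Ms4a6c, Ms4a6d, Ms4a7 and Ms4a8a. These were 8 of 46078 genes in the table, taken by gene name. The mice were C57Bl6, either young (6 weeks) or middle-aged (8 months), and either naive or injured by lysolecithin, a detergent-like lipid that strips myelin, injected into the ventrolateral white matter and collected after 72 h. Each of the 4 groups had 3 libraries, each library being a pool of tissue cut out by laser capture from 5 animals, so that an SD describes pools and not single mice. All mice carried the same wild-type background. The naive mice had no injection, so the effect of lysolecithin and that of the injection itself cannot be told apart here.

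MS4A proteins are small membrane proteins that cross the membrane several times and act within receptor complexes, where they change how signals are passed on. The best known are Ms4a1, which encodes the B cell antigen CD20, and Ms4a2, which encodes the beta chain of the high-affinity IgE receptor of mast cells. In mice the Ms4a4, Ms4a6 and Ms4a7 branches are used mainly by monocytes and macrophages, with Ms4a4b also known from T cells. Ms4a7 is known as a gene of border macrophages and of macrophages that descend from blood monocytes, and is low in resting microglia.

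All 8 members lie in a cluster on chromosome 19 (GRCm38), between 11067471 and 11604849, a stretch of 537379 bases that holds 27 genes of the table. Ms4a8a (chr19:11067471-11081102) sits at one end, apart from the others. Ms4a7 (chr19:11321039-11336146), Ms4a4a (chr19:11375523-11392790), Ms4a4c (chr19:11404770-11427246), Ms4a4b (chr19:11443553-11467055), Ms4a6c (chr19:11469366-11482192), Ms4a6b (chr19:11516512-11531256) and Ms4a6d (chr19:11586604-11604849) follow in that order. Ms4a7, Ms4a8a and Ms4a6d are read from the minus strand and the other 5 from the plus strand. Their coding sequences fell into branches: Ms4a4b and Ms4a4c were identical at 91.7% of aligned columns, Ms4a6b and Ms4a6d at 80.1%, and Ms4a6b and Ms4a6c at 74.7%, whereas Ms4a7 reached at most 51.9% and Ms4a8a at most 48.9% with any member.

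The upstream sequence is shown for the 2 pairs of members whose windows shared the longest unbroken stretch. All 7 tested members rose after injury (values follow), so a shared rise does not set these pairs apart. The RefSeq promoter table (GRCm38.p6) held 8 windows for 7 of the members and none for Ms4a6d. Of these, 2 pairs shared a long unbroken stretch, 24 bases between Ms4a6c and Ms4a6b and 20 bases between Ms4a4c and Ms4a4b, while no other pair of windows shared more than 9. All 4 lie outside annotated exons and end just before an exon, running 5′ to 3′ on the plus strand with the shared stretch in capitals. The Ms4a6c and Ms4a4b windows end at the annotated gene start, whereas those of Ms4a6b and Ms4a4c lie before the RefSeq start used and inside the gene as annotated for the counts, which begins further upstream.
Ms4a6c, chr19:11469118-11469365: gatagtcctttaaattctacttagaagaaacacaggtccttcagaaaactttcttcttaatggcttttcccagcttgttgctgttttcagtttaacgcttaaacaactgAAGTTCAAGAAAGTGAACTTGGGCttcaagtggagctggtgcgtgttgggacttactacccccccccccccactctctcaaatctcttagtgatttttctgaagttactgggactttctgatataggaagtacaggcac
Ms4a6b, chr19:11518309-11518452: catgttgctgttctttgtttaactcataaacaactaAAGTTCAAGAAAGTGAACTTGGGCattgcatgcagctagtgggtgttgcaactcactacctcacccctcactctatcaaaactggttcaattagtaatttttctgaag
Ms4a4c, chr19:11407411-11407660: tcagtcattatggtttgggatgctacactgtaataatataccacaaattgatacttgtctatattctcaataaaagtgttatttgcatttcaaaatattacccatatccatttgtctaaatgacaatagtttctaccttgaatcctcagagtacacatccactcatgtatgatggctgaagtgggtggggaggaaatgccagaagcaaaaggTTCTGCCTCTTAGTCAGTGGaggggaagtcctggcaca
Ms4a4b, chr19:11443308-11443552: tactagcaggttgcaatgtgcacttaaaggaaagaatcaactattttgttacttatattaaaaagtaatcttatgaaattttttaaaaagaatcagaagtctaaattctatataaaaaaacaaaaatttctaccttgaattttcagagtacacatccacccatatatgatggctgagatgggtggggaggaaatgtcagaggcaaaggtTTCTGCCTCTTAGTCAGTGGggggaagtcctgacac

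The 250 bases before each start were searched on both strands for 4 motifs of myeloid and interferon-responsive genes. GGAAGT, a core of ETS-family sites, was found in 5 of the 8 member windows (those of Ms4a7, Ms4a4c, Ms4a4b, Ms4a6c and Ms4a6b) and in 19.7% of 32851 RefSeq windows of the same length. GAGGAA, a core of PU.1 sites, was in 2 of 8 windows (Ms4a4c and Ms4a4b) against 23.3% of all windows. The C/EBP pattern TTNNGCAA (9.56% of all windows) and the interferon-stimulated response element (2.98%) were in none. These matches describe letters in a window and were not tested as binding sites.

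Library totals were 9834447 to 12807437 counts, and 3 counts in a library, the floor used for detection, corresponded to 0.234 to 0.305 CPM, the count of a gene scaled to the size of its library. The 6 oligodendrocyte markers summed to between 53009 and 101953 CPM in the naive pools. The 4 neuron markers summed to 681 to 1976 CPM in young naive and 1167 to 1239 CPM in middle-aged naive pools. Without grey matter for comparison, the white matter label was not tested. All 6 oligodendrocyte markers fell with injury at both ages, where 26.3% of all genes in young and 29.3% in middle-aged mice were called lower. Pan-myeloid marker genes (Csf1r, Itgam, Aif1, Cd68, Ptprc, Laptm5, Cd53 and Spi1) summed to 94.0 to 122 CPM in young naive, 137 to 178 in middle-aged naive, 1871 to 1936 in young injured and 2001 to 2604 in middle-aged injured pools. Of these genes 8 of 8 rose with injury at both ages, where 28.3% of all genes in young and 29.2% in middle-aged mice were called higher. Middle-aged naive pool 2 stood apart from the other naive pools, at -86.7 on the second principal component against -8.90 to 26.8 in all others, and also had the highest naive count of Ms4a6b (34). In tissue of this kind fewer cells of a type and less RNA per cell cannot be told apart.

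All 7 Ms4a genes that could be tested rose with injury, with Ms4a7, Ms4a6c, Ms4a4a, Ms4a6d, Ms4a6b and Ms4a4c between rank 59 and rank 559 of 15866 genes by log2 fold change in young mice. In edgeR's quasi-likelihood test, with Benjamini-Hochberg adjustment over 15866 genes, 7 of the 8 members could be tested and 7 were higher after injury in young mice, where 28.3% of all genes tested were called higher. The same 7 were higher in middle-aged mice, where 29.2% of genes were called higher. Ms4a8a did not pass the low-count filter. Ms4a4a, Ms4a4b, Ms4a4c and Ms4a7 had at most 6 counts in any naive pool and so entered the test through the injured pools, which means that the count of 7 describes the members and carries no further weight.

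**Figure D1:**
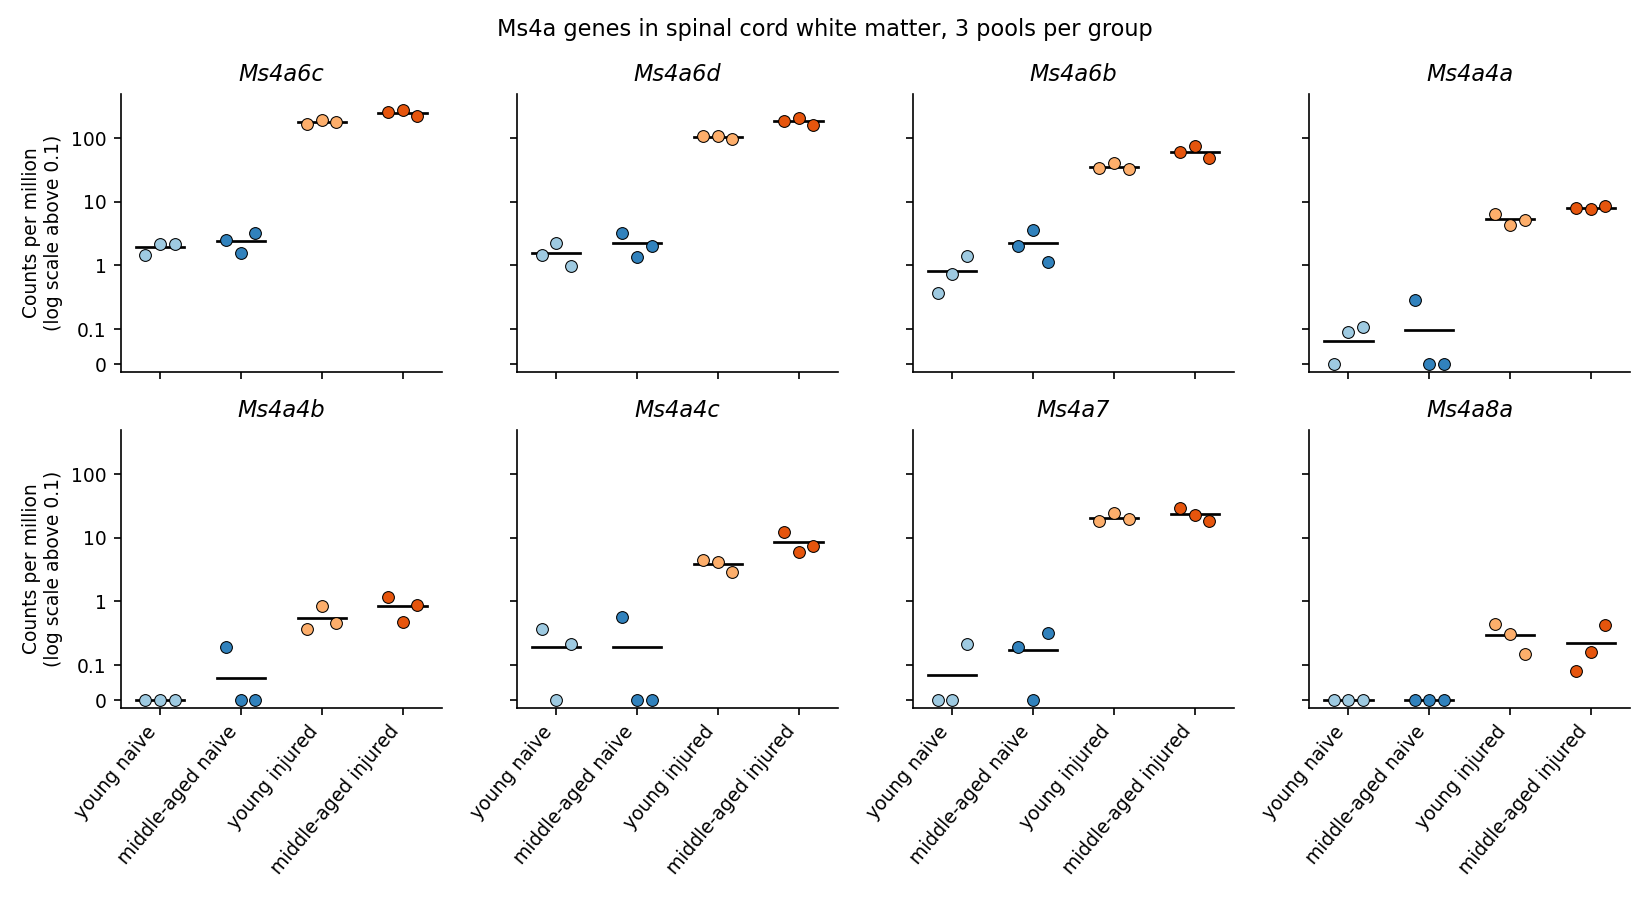
Level of each Ms4a gene in the 12 pools, in CPM (vertical axis, logarithmic above 0.1 and linear below it), with 1 point per pool and a bar at the group mean. In every panel the 6 injured pools lie above the 6 naive pools, Ms4a6c at 167 to 277 and Ms4a8a at 0.083 to 0.440 CPM in the injured pools.

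In CPM per kilobase, the Ms4a6 branch held most of the family's summed level in lesions. Ms4a6c, a gene of monocytes and macrophages, measured 1.46, 2.18 and 2.15 CPM in the young naive pools and 2.50, 1.57 and 3.28 CPM in the middle-aged naive pools, against 167, 189 and 180 CPM in young injured and 254, 277 and 219 CPM in middle-aged injured pools. The naive ages overlapped, the injured ages did not, and every injured pool was far above every naive pool. The log2 fold change was 6.53 (SE 0.22, adjusted p = 4.62e-11) in young and 6.64 (SE 0.21, adjusted p = 3.65e-11) in middle-aged mice.

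Ms4a6d, whose product is known from macrophage inflammatory signalling, measured 1.46, 2.27 and 0.968 CPM in young naive and 3.26, 1.36 and 2.0 CPM in middle-aged naive pools. After injury it measured 108, 107 and 95 CPM in young and 185, 206 and 162 CPM in middle-aged pools. As for Ms4a6c, the injured pools of the 2 ages were separate from each other and from all naive pools. The log2 fold change was 6.01 (SE 0.26, adjusted p = 3.57e-10) in young and 6.37 (SE 0.26, adjusted p = 1.90e-10) in middle-aged mice.

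Ms4a6b, the closest relative of Ms4a6d and known from lymphocytes as well as myeloid cells, measured 0.364, 0.725 and 1.40 CPM in young naive and 2.02, 3.57 and 1.12 CPM in middle-aged naive pools. It reached 33.8, 40.8 and 32.2 CPM in young injured and 61.3, 74.8 and 47.8 CPM in middle-aged injured pools. The naive values spread widely and overlapped between ages, while the injured values did not overlap. Its log2 fold change was 5.45 (SE 0.40, adjusted p = 4.94e-08) in young and 4.81 (SE 0.35, adjusted p = 4.34e-08) in middle-aged mice.

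With all 12 libraries fitted, Ms4a7 had the largest log2 fold change of the 7 at both ages, on very few naive counts. It had 0, 0 and 2 counts in the young naive pools and 2, 0 and 4 in the middle-aged naive pools, then 248, 312 and 264 counts in young injured and 350, 289 and 209 counts in middle-aged injured pools. The injured pools of the 2 ages overlapped, as did the naive ones, and injured and naive pools were far apart. Its log2 fold change in young mice was 8.12 (SE 0.56, adjusted p = 2.82e-08), the 59th largest of 15866, and that in middle-aged mice was 6.91 (SE 0.48, adjusted p = 2.56e-08). Because the young naive group held 2 counts in all, the ratio of summed counts was 324 with a 95% counting interval of 89.4 to 2680, and the middle-aged ratio was 127 (58.0 to 347). Both intervals include the ratio of Ms4a6c (93.1 in young and 99.3 in middle-aged mice). These intervals cover counting error only. Without young naive pool 3, which held both counts, the young value was 10.94, and without middle-aged naive pool 3 the middle-aged value was 7.72.

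Ms4a4a, known from macrophages, had 0, 1 and 1 counts in young naive, 3, 0 and 0 in middle-aged naive, 87, 56 and 69 in young injured and 95, 96 and 99 in middle-aged injured pools. The 3 middle-aged injured pools were close together and all above the young ones. The log2 fold change with injury was 6.15 (SE 0.67, adjusted p = 2.49e-06) in young and 6.28 (SE 0.62, adjusted p = 8.46e-07) in middle-aged mice. The ratio of summed counts was 83.4 (22.8 to 693) in young and 86.8 (29.4 to 423) in middle-aged mice.

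Ms4a4c had 4, 0 and 2 counts in young naive, 6, 0 and 0 in middle-aged naive, 60, 53 and 39 in young injured and 149, 75 and 85 in middle-aged injured pools. Here the middle-aged injured pools were again above all young injured pools, with pool 1 standing high. Its log2 fold change was 4.24 (SE 0.78, adjusted p = 3.62e-04) in young and 5.44 (SE 0.77, adjusted p = 2.89e-05) in middle-aged mice. The young value was 5.12 without young naive pool 1 and 3.65 without young naive pool 2.

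Ms4a4b, whose product is known to restrain T cell proliferation, and Ms4a8a, known from alternatively activated macrophages, stayed near the floor even after injury. Ms4a4b had no count in young naive, 2, 0 and 0 in middle-aged naive, 5, 11 and 6 in young injured and 14, 6 and 10 in middle-aged injured pools. With the young naive group set at 3 counts, it was 5.77-fold higher after injury in young mice. The lower 95% counting limit of its ratio there was 4.31. It was 13.5-fold higher (3.42 to 116, counting interval) in middle-aged mice, where the adjusted p was 0.00660. In young mice the adjusted p was 0.00404.

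Ms4a8a had no count in any of the 6 naive pools, 6, 4 and 2 in young injured and 1, 2 and 5 in middle-aged injured pools. With the naive group set at 3 counts, it was 3.15-fold higher after injury in young and 2.39-fold higher in middle-aged mice. The lower 95% counting limits of its ratio were 2.19 and 1.53. Its injured and naive pools did not overlap, with an exact permutation p of 0.1 (two-sided, 3 pools against 3, the smallest this design allows) at each age and of 0.005 with both ages exchanged together over 400 arrangements.

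All the middle-aged naive counts of Ms4a4a, Ms4a4b and Ms4a4c came from pool 1. Without that pool the fitted log2 fold changes with injury in middle-aged mice were 9.56, 6.31 and 9.66, which stand against groups at 0 and are no bound. Without middle-aged naive pool 3 they were 5.65, 2.94 and 4.80. All 3 genes kept their call in both cases.

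A second scale set each library to an equal level of the 8 pan-myeloid markers, so that a change was one per unit of pan-myeloid RNA rather than per library. On this scale the median gene fell by 4.34 on the log2 scale with injury in young and by 3.85 in middle-aged mice, since the markers themselves rose by a median of 4.2 and 3.86. Against that shift, 4 of the 7 tested members were still higher in young mice (Ms4a7, Ms4a6c, Ms4a6d and Ms4a6b), where 1.19% of all genes were called higher. In middle-aged mice Ms4a4a joined them, making 5, where 1.87% of genes were called higher. Ms4a7 and Ms4a4a are in these counts only because the injured pools carried them past the low-count filter, so the counts describe the members and carry no further weight. Among the 8 markers that set this scale, 2 were called higher and 2 lower in young mice, from -2.23 to 2.59. In middle-aged mice 2 were higher and 3 lower, from -2.01 to 1.74. Of 7 tested monocyte markers 3 were higher and 2 lower at both ages. Of 8 border macrophage markers 2 were higher and 1 lower in young and 3 higher and 1 lower in middle-aged mice. Of all genes 93.5% and 93.1% were called lower.

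On this scale Ms4a7 had a log2 fold change of 4.0 (SE 0.81, adjusted p = 1.05e-04) in young and 3.17 (SE 0.64, adjusted p = 1.03e-04) in middle-aged mice. Ms4a6c was at 2.21 (SE 0.30) and 2.83 (SE 0.29), and Ms4a6d at 1.67 (SE 0.39) and 2.50 (SE 0.39). Without young naive pool 3 the young value of Ms4a7 was 10.39, and its middle-aged value was 2.59 without naive pool 2 and 3.92 without naive pool 3. The middle-aged value of Ms4a6d was 3.12 without naive pool 1. Ms4a6b was the lowest of those called, at 1.16 (SE 0.43, adjusted p = 0.0160) and 0.97 (SE 0.38, adjusted p = 0.0219).

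Ms4a4a measured 2.04 (SE 1.02, adjusted p = 0.0643) in young and 2.58 (SE 0.89, adjusted p = 0.00975) in middle-aged mice on this scale. Ms4a4c measured -0.026 (SE 0.99) in young and 1.59 (SE 0.94) in middle-aged mice and Ms4a4b -0.089 (SE 1.32) in middle-aged mice, and both genes passed the test at neither age. Of the weaker calls, Ms4a6b in young mice was lost without young naive pool 1 (0.87) or with Csf1r left out of the markers (0.84), and in middle-aged mice without naive pool 3 (0.59) or injured pool 2 (0.86), or with Aif1 (0.78) or Csf1r (0.69) left out of the markers. The call of Ms4a4a in middle-aged mice was also lost without naive pool 3 (1.81), and its value was 8.74 without naive pool 1.

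**Figure D2:**
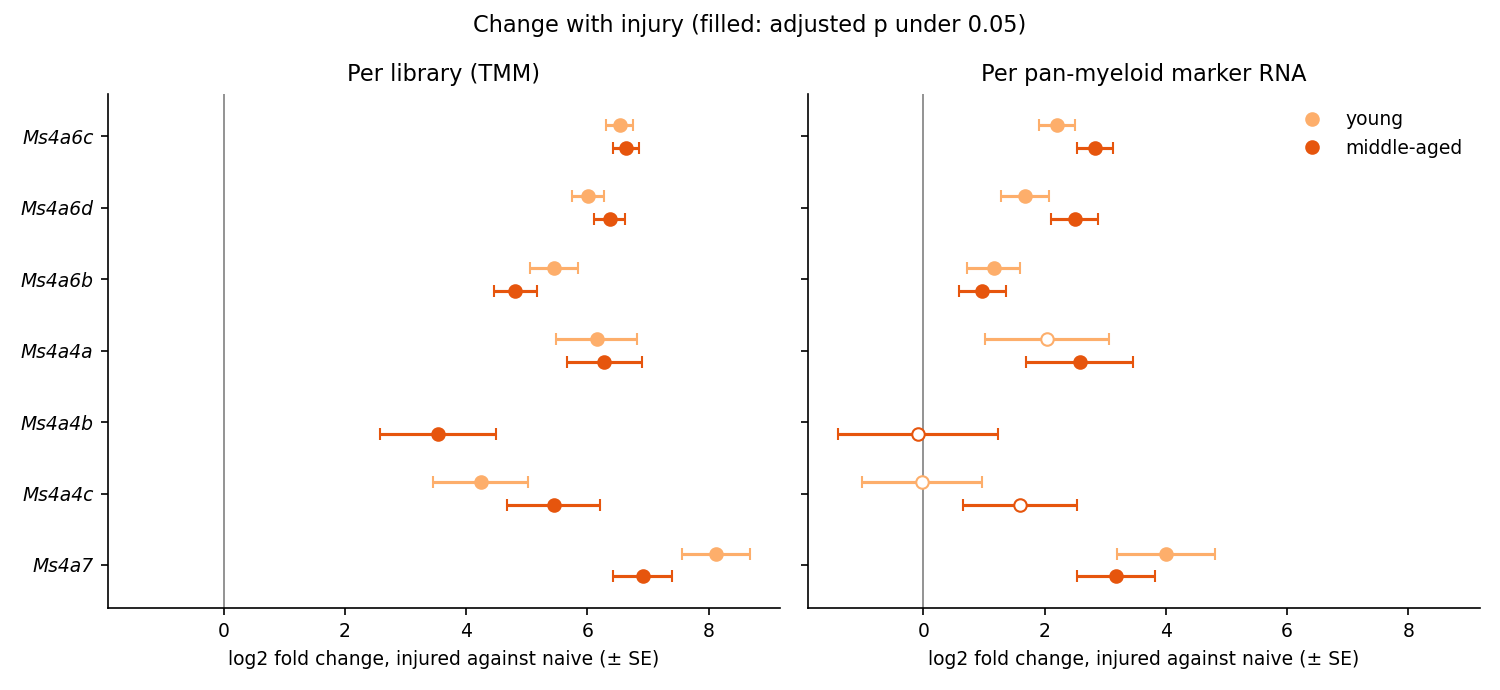
Change of each tested Ms4a gene with injury, as the log2 fold change with its standard error, per library (left) and per unit of pan-myeloid marker RNA (right). Filled points have an adjusted p under 0.05, and Ms4a4b in young mice is left out because its naive pools were at 0. All points on the left are filled, and on the right Ms4a4b in middle-aged and Ms4a4c in young mice lie at 0 within their error.

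Age made no difference that passed the test in naive tissue, where 3.8% of all genes were called. None of the 7 tested members was called by edgeR, Ms4a6b alone having an unadjusted p under 0.05. Ms4a6b measured 0.829 ± 0.525 CPM (SD, n = 3 pools) in young and 2.23 ± 1.24 CPM in middle-aged naive tissue, a log2 difference of 1.42 (SE 0.47, adjusted p = 0.119, edgeR). It was called by DESeq2 and when no low-count filter was applied, and was 0.93 (adjusted p = 0.310) without middle-aged naive pool 2. The difference was 0.38 (SE 0.26) for Ms4a6c and 0.48 (SE 0.33) for Ms4a6d. Per unit of pan-myeloid RNA no member was called either and none had an unadjusted p under 0.05, where 55.2% of all genes were called. The summed level of the 8 members was 4.65 ± 0.879 CPM in young and 7.42 ± 1.40 CPM in middle-aged naive tissue. The 8 homeostatic microglia markers summed to 187 to 249 and 278 to 448 CPM. Of these markers, 3 were called higher per library in middle-aged naive tissue and 5 were not called, where 2.02% of all genes were called higher.

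In lesions the summed Ms4a level per library was higher in the middle-aged pools. It was 348 ± 19.6 CPM in young and 537 ± 66.9 CPM in middle-aged injured pools. Ms4a4a, Ms4a4c, Ms4a6b, Ms4a6c and Ms4a6d were higher in 3 of 3 middle-aged pools than in any young pool. Each had an exact permutation p of 0.1 (two-sided), the smallest that 3 pools against 3 allow. How many of all genes separate in this way was not counted, so the separation describes these members only. By edgeR 1 member, Ms4a6d, passed the threshold, where 1.15% of all genes were called and 0.24% were called higher. Its log2 difference was 0.83 (SE 0.19, adjusted p = 0.0468).

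That call was at the edge of the threshold. It was lost with library totals (0.78, adjusted p = 0.0623) and upper-quartile factors (0.83, adjusted p = 0.0529), and in 8 of 12 fits that left out 1 library: each of the 6 injured pools, young naive pool 1 and middle-aged naive pool 3. Over those 12 fits the size stayed between 0.75 and 0.93, with adjusted p between 0.00860 and 0.266. The call was kept by DESeq2 (adjusted p = 1.50e-04), with no low-count filter (7.89e-04) and with only the libraries compared (0.00153).

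The other differences between the ages in lesions were 1.16 (SE 0.54, adjusted p = 0.512) for Ms4a4c, 0.78 (SE 0.28, adjusted p = 0.283) for Ms4a6b, 0.60 (SE 0.38, adjusted p = 0.757) for Ms4a4a and 0.49 (SE 0.15, adjusted p = 0.186) for Ms4a6c on the log2 scale. Ms4a4c, Ms4a6b, Ms4a6c and Ms4a6d were all called when only the 6 injured libraries were fitted, where 818 genes were called against 182 in the fit of all libraries. Ms4a7 differed by 0.17 (SE 0.29, adjusted p = 0.987) and Ms4a4b by 0.58 (SE 0.67, adjusted p = 0.957), and in both genes the ages overlapped.

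Per unit of pan-myeloid RNA no member passed the threshold between the ages in lesions, where 1.15% of all genes were called and the median gene was at -0.29. Ms4a4c stood at 0.85 (SE 0.67, adjusted p = 0.611), Ms4a6d at 0.53 (SE 0.33, adjusted p = 0.542), Ms4a4a at 0.31 (SE 0.54), Ms4a6c at 0.18 (SE 0.25), Ms4a6b at 0.47 (SE 0.35) and Ms4a7 at -0.15 (SE 0.43). None of the 7 had an unadjusted p under 0.05 on this scale. Per library, the pan-myeloid markers themselves were not called between the ages in lesions (0 of 8, median log2 difference 0.42). Also per library, 5 of the 6 oligodendrocyte markers passed the threshold as lower in middle-aged than in young lesions. There 1.15% of all genes were called in either direction. Per unit of pan-myeloid RNA, 4 of the 6 passed it as lower.

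**Figure D3:**
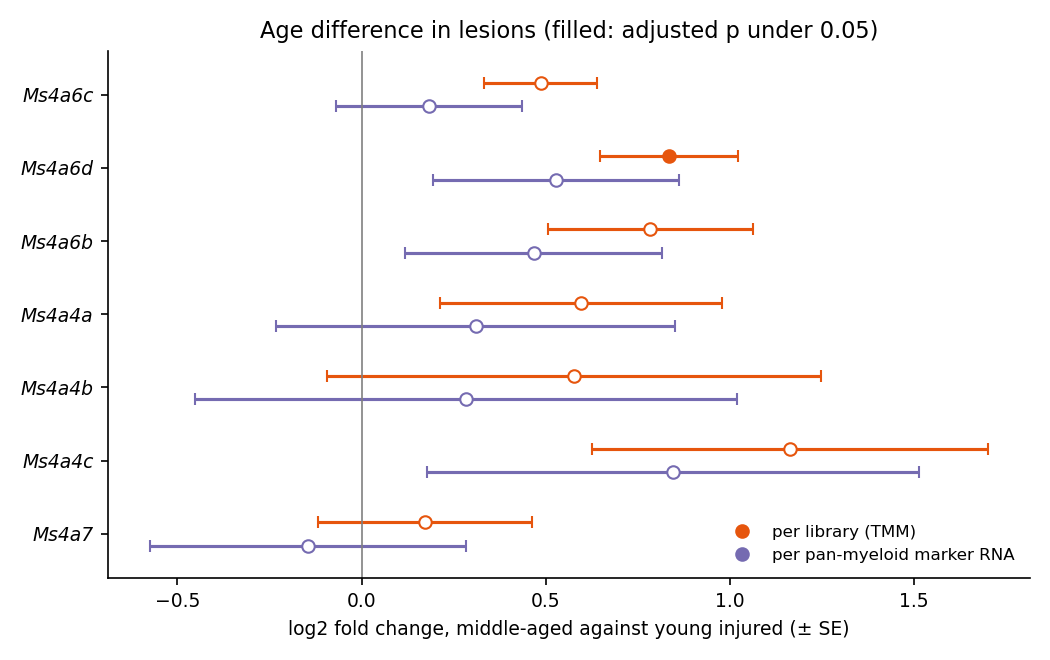
Difference between middle-aged and young lesions for each tested Ms4a gene, as the log2 fold change with its standard error, per library (orange) and per unit of pan-myeloid marker RNA (purple). Ms4a6d per library is the one filled point (adjusted p under 0.05), and every purple point lies to the left of its orange partner, on a scale that moves the median gene to -0.29.

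The change with injury was not shown to differ between the ages for any of the 7 tested members (0 called, 0.139% of all genes). The differences of the log2 fold changes were 0.36 (SE 0.38) for Ms4a6d, 0.11 (SE 0.31) for Ms4a6c and -0.64 (SE 0.55) for Ms4a6b, with adjusted p from 0.770 to 0.953 in edgeR's test. None of the 7 had an unadjusted p under 0.05, and DESeq2 called none.

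Levels were compared between genes only per length, as CPM per kilobase of merged exons. In young lesions Ms4a6c was highest at 87.1 ± 5.45 (SD, n = 3 pools), followed by Ms4a6d at 59.6 ± 4.14, without overlap. Ms4a6b (7.94 ± 1.03), Ms4a4a (6.35 ± 1.23) and Ms4a7 (4.66 ± 0.693) formed a middle set whose neighbours overlapped. Ms4a4c (2.18 ± 0.443) lay below them, and Ms4a8a (0.167 ± 0.0809) and Ms4a4b (0.0635 ± 0.0295) overlapped at the bottom.

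The order was the same in middle-aged lesions, but Ms4a6c (122 ± 14.4) and Ms4a6d (106 ± 12.6) now overlapped, as did Ms4a7 (5.25 ± 1.24) and Ms4a4c (4.89 ± 1.92). Ms4a6b (13.7 ± 3.01) and Ms4a4a (9.61 ± 0.549) were separate from their neighbours. With the length of the longest protein-coding transcript in place of merged exons, Ms4a7 moved above Ms4a4a to the fourth place at both ages and its share of the family was 6.40% in young and 4.65% in middle-aged lesions.

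The make-up of the family was also expressed as shares of the summed per-length level. Ms4a6c held 49.1%, 52.3% and 54.1% in the young injured pools and 46.3%, 46.9% and 46.5% in the middle-aged injured pools. Ms4a6d held 37.5%, 35.1% and 33.7% in young and 39.9%, 41.1% and 40.7% in middle-aged pools. Neither gene's ages overlapped, Ms4a6c being lower and Ms4a6d higher in every middle-aged pool.

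Ms4a7 held 2.47%, 3.08% and 2.75% in young and 2.44%, 1.80% and 1.76% in middle-aged pools, so that the highest middle-aged pool came just below the lowest young one. Each of these 3 differences had an exact permutation p of 0.1 (two-sided, 3 pools against 3), the smallest this design allows. Shares sum to 100% in a pool, so a rise in one lowers the others. The shares of Ms4a6b (4.71 ± 0.397% and 5.18 ± 0.572%), Ms4a4a (3.80 ± 0.837% and 3.72 ± 0.659%) and Ms4a4c (1.29 ± 0.245% and 1.88 ± 0.729%) overlapped between the ages.

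**Figure D4:**
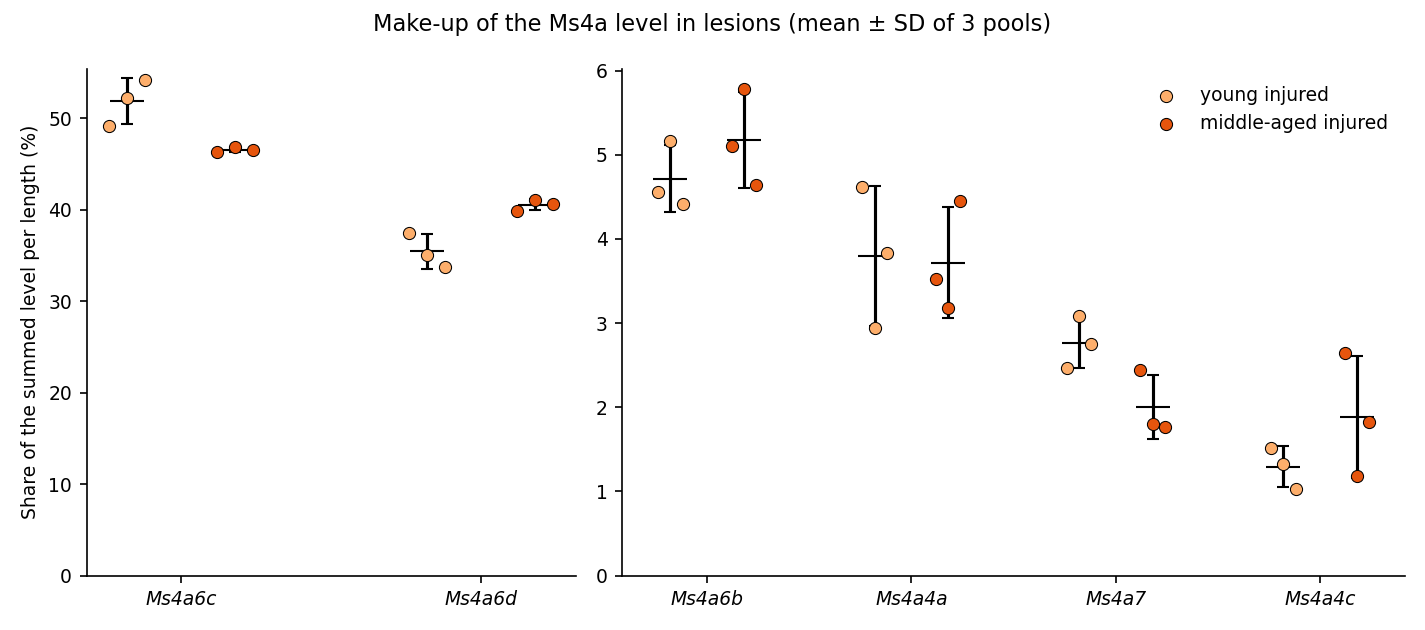
Share of each of 6 Ms4a genes in the summed per-length level of the 8 members (vertical axis, percent, from 0), with 1 point per injured pool and the mean and SD of 3 pools. Ms4a6c and Ms4a6d together hold most of the level at both ages, and their shares lie closer together in the middle-aged pools (46.6% and 40.5%) than in the young ones (51.8% and 35.4%).

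The values of Ms4a6c carry a limit of their own. An antisense gene, BE692007 (chr19:11470166-11484578, opposite strand), covers 1088 of its 2050 exon bases, 53.1%, and the strand setting of the counting is not given in the sources used here. BE692007 had 1933 to 2921 counts in the injured pools, 0.814 to 0.869 of the Ms4a6c count, and 11 to 34 counts in the naive pools. Its log2 fold change with injury was 6.46 (SE 0.28) in young and 6.59 (SE 0.28) in middle-aged mice, by edgeR. Reads that lie in the overlapping bases cannot be assigned to 1 of the 2 genes without the strand. Of runs of 31 bases in Ms4a6c exons, matched on either strand, 58.1% occurred in another gene. Most of these were in BE692007, whose exons overlap on the opposite strand as given above, and 281 of 2020 were in Ms4a6b. Of the runs in Ms4a4c 17.1% occurred in another gene, most of them in Ms4a4b, so the split between these pairs is uncertain. The share was 8.11% in Ms4a6d, 7.90% in Ms4a6b, 1.42% in Ms4a7 and 0 in Ms4a4a.

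The other genes of the cluster were mostly silent. Of 14 further MS4A superfamily genes listed, 13 were in the table, 4 could be tested and all 4 rose with injury at both ages (28.3% and 29.2% of all genes were called higher). Of these, Ms4a4d and Ms4a14 entered the test through the injured pools. Ms4a4d had no count in young naive and 2, 6 and 3 in middle-aged naive pools, against 22, 18 and 20 in young injured and 27, 19 and 13 in middle-aged injured pools. With the young naive group set at 3 counts, it was 15.7-fold higher after injury in young mice. The lower 95% counting limit of its ratio there was 12.4. It was 4.81-fold higher (2.50 to 10.2, counting interval) in middle-aged mice. Its naive ages did not overlap (adjusted p = 0.0432, edgeR), on 11 counts in all. Ms4a4d was 1 of 2 among the 4 tested superfamily genes that were called higher in middle-aged naive tissue, where 2.02% of all genes were called higher.

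Ms4a14 had 1, 1 and 0 counts in young naive and none in middle-aged naive pools, with 22, 9 and 18 in young injured and 15, 13 and 14 in middle-aged injured pools. Tmem176a and Tmem176b, superfamily genes on chromosome 6 that work in ion transport of antigen-presenting cells, were well expressed in naive tissue and rose modestly. Tmem176b went from 40.7 ± 7.01 to 128 ± 13.5 CPM in young (log2 fold change 1.65, SE 0.14) and from 60.1 ± 3.22 to 118 ± 10.4 CPM in middle-aged mice (0.98, SE 0.14). Tmem176a changed by 1.79 (SE 0.17) and 1.24 (SE 0.17) on the log2 scale. Per unit of pan-myeloid RNA both fell at both ages, Tmem176a by 2.57 and 2.59 and Tmem176b by 2.68 and 2.84 on the log2 scale, where 93.5% and 93.1% of all genes were called lower.

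Ms4a1, the CD20 gene, had at most 3 counts in a naive pool and 3 to 6 in an injured pool. Ms4a2, Ms4a3, Ms4a5, Ms4a10, Ms4a12, Ms4a13, Ms4a15 and Ms4a18 had at most 1 count in any of the 12 pools. The members that rose therefore shared the cluster with genes that were not detectable at this depth, as the map of counts along the cluster shows.

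**Figure D5:**
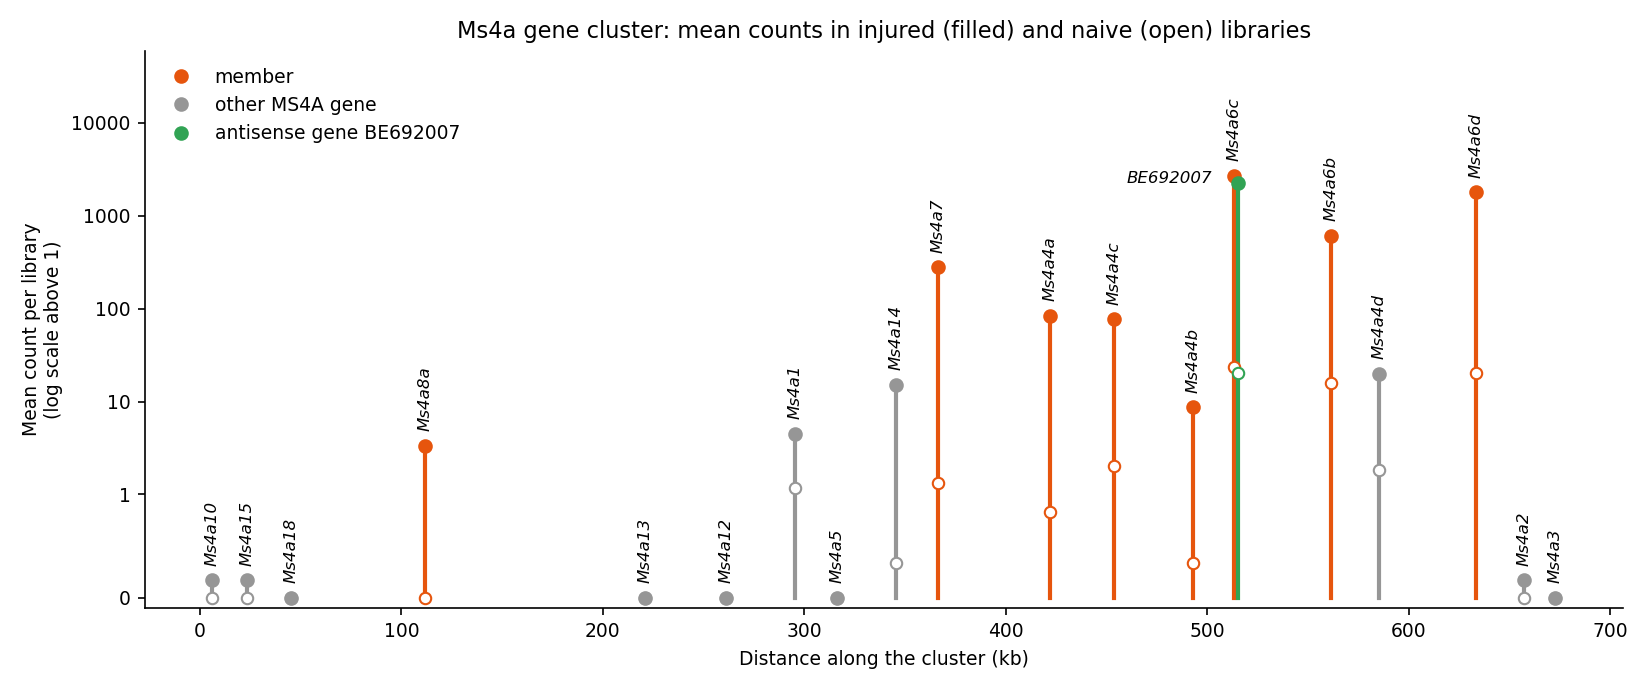
Mean count per library of the MS4A genes along the chromosome 19 cluster and of the antisense gene BE692007, with distance from the first gene in kilobases on the horizontal axis and a vertical axis that is logarithmic above 1. Filled points are the mean of 6 injured libraries and open points of 6 naive libraries, members in orange. The high injured values cluster from Ms4a7 to Ms4a6d, with Ms4a4b and Ms4a4d low among them. Ms4a14, next to Ms4a7, has 9 to 22 counts in the injured libraries, and the genes at both ends of the map lie near 0.

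Genes whose products work with MS4A proteins or in the same receptors were followed as a list. Of 13 listed, 12 were tested, 11 rose with injury and 1 fell at both ages (28.3% of all genes were called higher and 26.3% lower in young, 29.2% and 29.3% in middle-aged mice), and Fcer1a, the IgE-binding chain of the mast cell receptor, had no count in any pool. Clec7a (Dectin-1), the fungal receptor that MS4A4A associates with on macrophages, went from 2.35 ± 1.04 to 204 ± 9.92 CPM in young (log2 fold change 6.46, SE 0.28) and from 11.4 ± 3.08 to 328 ± 62.0 CPM in middle-aged mice (4.85, SE 0.24). Trem2, a lipid-sensing receptor of macrophages and microglia, rose by 4.41 (SE 0.26) and 3.47 (SE 0.24), and its adaptor Tyrobp by 4.26 (SE 0.25) and 3.29 (SE 0.23).

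Fcer1g, the shared signalling chain of Fc receptors, rose by 4.86 (SE 0.29) and 3.62 (SE 0.27), and the kinase Syk by 4.15 (SE 0.36) and 3.77 (SE 0.34). Cd9, a tetraspanin of myeloid and glial cells, rose by 2.46 (SE 0.11) and 2.74 (SE 0.11), whereas the tetraspanin Cd81 fell by 0.46 (SE 0.10) in young and by 0.40 (SE 0.10) in middle-aged mice. In naive tissue 4 of the 12 were higher in middle-aged mice (Trem2, Tyrobp, Clec7a and Fcer1g) and 2 lower (Adam17 and Cd81), where 2.02% of all genes were called higher and 1.78% lower, and in lesions none of the 12 was called between the ages. Per unit of pan-myeloid RNA, 1 of the 12 was higher and 6 lower after injury at each age, where 1.19% of all genes were called higher and 93.5% lower in young and 1.87% and 93.1% in middle-aged mice.

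Markers of other cell types rose in the same libraries, and their part in the Ms4a values was not tested. Of 8 monocyte markers 7 were tested, and 6 rose with injury at both ages while 1 fell in young mice. Of all genes, 28.3% were called higher and 26.3% lower in young mice, and 29.2% higher in middle-aged mice. The list summed to 124 to 133 CPM in young naive, 108 to 146 in middle-aged naive, 1216 to 1460 in young injured and 1251 to 1362 in middle-aged injured pools. Fn1 made up most of that sum in lesions, with means of 1044 CPM in young and 975 CPM in middle-aged mice. Mean levels of Fn1 and Vcan were lower in middle-aged lesions, and those of Ccr2, Plac8, Chil3, Ly6c2, Ly6c1 and S100a4 higher. Between the ages in lesions 1 of the 7 was called lower and none higher. Ccr2, Plac8 and Chil3 were at 0 in all young naive pools and Plac8 in all middle-aged naive pools, whereas Ccr2 had 641 to 1031 and 1306 to 1968 counts in the young and middle-aged injured pools. Of 8 border macrophage markers 7 rose at both ages (28.3% and 29.2% of all genes were called higher). The list went from 8.84 to 11.7 and 17.4 to 22.8 CPM in naive to 461 to 494 and 512 to 625 CPM in injured pools, with Cbr2 at 0 in every naive pool. F13a1 and Stab1 made up most of that sum in lesions, with means of 223 and 204 CPM in young and 215 and 266 CPM in middle-aged mice. Lyve1, Pf4, Cd163, Cbr2 and Clec10a had means of at most 7.64 CPM there.

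The 8 homeostatic microglia markers changed less, 4 higher and 1 lower with injury in young and 3 higher and 3 lower in middle-aged mice. Of all genes, 28.3% were called higher and 26.3% lower in young and 29.2% and 29.3% in middle-aged mice. The middle-aged marker counts are near those shares. The 8 markers summed to 187 to 249 and 278 to 448 CPM in naive and 683 to 731 and 519 to 650 CPM in injured pools. The 10 markers of T and natural killer cells summed to at most 0.22 CPM in young naive and 2.83 CPM in middle-aged naive pools, and to 2.86 to 5.43 and 3.35 to 8.03 CPM in injured pools. Of the T cell genes among them, Cd3d and Cd3e had at most 5 counts in any pool, while in the young and middle-aged injured pools Cd3g had 3 to 9 and 6 to 26 counts, Lck 7 to 17 and 11 to 14, and Cd4 11 to 29 and 16 to 42, beside 5 to 14 counts of Ms4a4b. Of 6 mast cell markers 4 (Mcpt4, Cma1, Tpsb2 and Tpsab1) had no count anywhere. The 8 neutrophil markers summed to at most 1.08 CPM in naive and 11.1 to 28.4 CPM in injured pools. Mmp8 made up most of that sum in lesions, with means of 11.6 CPM in young and 19.6 CPM in middle-aged mice. Ly6g, Retnlg, Camp and Ngp had at most 6 counts in any pool, and 3 of the 8 markers could be tested.

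The genes whose profiles over the 12 libraries lay closest to each member, by the root mean square difference of centred log2 CPM among 13118 genes, were mostly genes raised in lesions. For Ms4a6d these were 4930430E12Rik (0.29), Cytip (0.40) and Spp1 (0.44), the last encoding osteopontin. For Ms4a6b they were Hcar2 (0.34), the niacin receptor gene, Fcgr2b (0.41), an inhibitory Fc receptor gene, and Plin2 (0.42), which encodes a lipid droplet coat protein.

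For Ms4a6c they were BE692007 (0.31), F7 (0.35) and Stra6l (0.37), and for Ms4a7 BE692007 (0.34), AB124611 (0.38) and Plbd1 (0.40). Ms4a4a was closest to Abcc3 (0.37), Frrs1 (0.37) and Ctsc (0.38), the cathepsin C gene. Ms4a4c had no partner as close, its nearest being Nlrc3 (0.53), Tmem273 (0.58) and Cd93 (0.59). These values are descriptions over libraries that share the 4 groups, and the differences of 0.29 to 0.59 compare with changes of more than 4 log2 units with injury.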

How the data were processed

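RNA of laser-captured spinal cord white matter was amplified, sequenced on an Illumina NextSeq and, per the submitters' processing notes and the study's methods, checked with FastQC 0.11.4, aligned to GRCm38 with TopHat2 2.0.10 and Bowtie 1.1.2 and counted per gene with featureCounts. The authors deposited raw read counts per Ensembl gene for 12 libraries, and amplified reads are not independent molecules. Groups came from the labels. The ages in weeks and months and the pooling of animals came from the study's methods. The strand setting of the counting is not given in the sources used here.

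The counts were fitted for all genes in 1 model with a coefficient for each of the 4 groups (edgeR 4.0.16 quasi-likelihood test in R 4.3.3, TMM factors, low-count filter by group, 15866 of 46078 genes tested, Benjamini-Hochberg adjustment, threshold 0.05). A second fit set the geometric mean of 8 pan-myeloid markers equal in every library. Levels are TMM-scaled CPM. Shares and untested members were compared by exact permutation tests. The scripts were tested on simulated data. Alternatives were other library factors and filters, DESeq2 1.42.0, only the libraries compared, a replicate block, other marker and length choices, and each library left out in turn. Same-group pools differed beyond counting noise (chi-square per degree of freedom 7.48 to 35.7, highest for the pairs with middle-aged naive pool 2), and all 12 were kept.

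The text names all 8 members, fixed lists of superfamily, partner and cell type marker genes, and for each member with a mean log2 CPM of at least 0 the 3 genes with the nearest centred profile. BE692007 was described further after its overlap with Ms4a6c was seen. Results of some other listed genes are not reported here. The members and lists were chosen with earlier results of these data known.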

Additional observations from a re-analysis of the deposited data

How the results depend on the processing

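With 3 pools a group, 8 residual degrees of freedom and naive counts near 0 for Ms4a7 and the Ms4a4 genes, the size of the injury change was limited by the naive pools, and Ms4a8a was under the low-count filter. Every member that an alternative tested was called higher with injury at both ages, except Ms4a8a, which DESeq2 did not call at either age (adjusted p = 0.0803 in young and 0.116 in middle-aged mice): 6 of 6 with the stricter filter or only the libraries compared, where Ms4a4b dropped out, and with no filter 8 of 8 in young and 7 of 8 in middle-aged mice. In lesions the number of members called between the ages was 0 with library totals or upper-quartile factors, 2 with no low-count filter or with DESeq2, 4 with only the libraries compared, and 0 to 2 with 1 library left out (2 without middle-aged naive pool 2, which added Ms4a6c). In naive tissue it was 1 (Ms4a6b) with no low-count filter or with DESeq2, and 0 to 1 with 1 library left out (1 without middle-aged naive pool 3). Per pan-myeloid RNA it was 0 to 1 between the ages in naive tissue (1 without middle-aged naive pool 1) and 3 to 6 with injury in middle-aged mice (3 without naive pool 3), and Ms4a4a in young mice passed the threshold with Cd53 or Cd68 left out of the markers. The sign turned in 5 values, all uncalled: the difference of injury effects of Ms4a6d was -0.0089 without young naive pool 2 and that of Ms4a6c -0.11 without middle-aged naive pool 2 (ranges with 1 library left out, -0.0089 to 0.73 and -0.11 to 0.39). The age difference of Ms4a6d per pan-myeloid RNA in naive tissue was 0.11 without young naive pool 2 and 0.024 without middle-aged naive pool 2 (range -0.92 to 0.11), and the age difference of Ms4a7 in lesions was -0.00082 without middle-aged injured pool 1 (range -0.00082 to 0.34). Over all genes, the age comparison in lesions called 182 genes, against 437 with no filter, 446 with DESeq2 and 818 with only the libraries compared, that in naive tissue 603 against 1153, 1085 and 71, and the difference of injury effects 22 against 329 with no filter and 240 with DESeq2. Library totals moved the median of all genes by 0.20 with injury in young and 0.11 in middle-aged mice. The cause of these changes was not tested.

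Pools with the same replicate number did not deviate together (correlation of deviations -0.11 to 0.15), so the numbers do not pair the samples. With the replicate number as a block the members called were 7 and 7 with injury in young and middle-aged mice, 0 and 1 between the ages in naive and injured tissue and 0 for the difference of injury effects, and 4, 5, 0 and 0 per pan-myeloid RNA, so that the block moved none of these counts.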

Other observations

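Of the other tissue markers, 4 of 5 astrocyte markers fell with injury at both ages. Of 4 neuron markers 2 fell in young mice, and 3 fell and 1 rose in middle-aged mice. Of all genes, 28.3% were called higher and 26.3% lower in young mice, and 29.2% and 29.3% in middle-aged mice.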
